A study of Homo sapiens with 12 samples.

Results

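The comparison described here sets MCF10A cells labelled Cas/ErbB2 against MCF10A cells labelled Cas. MCF10A is a non-tumorigenic line of human mammary epithelial cells. The 6 samples, 3 per group, were chosen by their titles from the 12 of the series, whose other groups are called ErbB2 and Ctr MCF10A.B2. All of them are described as modified cells of this line. Total RNA was hybridized to Illumina bead arrays, on which each probe gives a mean bead signal. The array names mark Cas with C- and Cas/ErbB2 with C+. The labels do not say whether these signs are states of the same cells, how either protein was raised or activated, or whether a line is a single clone. The series title concerns invasive signatures that depend on p130Cas and ErbB2, and the question addressed here is what ErbB2 went with in cells that carry Cas in both groups.

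ErbB2, also known as HER2, belongs to the EGF receptor family of tyrosine kinases. It has no ligand of its own, pairs with other ErbB receptors, and signals through the Ras-ERK and PI3K-mTOR pathways. p130Cas, the product of BCAR1, is a scaffold at focal adhesions that is phosphorylated by Src and FAK once integrins engage the matrix, and binds Crk, BCAR3 and other adaptors. In breast epithelium ErbB2 is best known as an oncogene amplified in a subset of carcinomas.

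A probe was kept where its detection p-value was under 0.05 on all 3 arrays of at least 1 of the 2 groups, which left 12667 of 47224 probes. These were reduced to 10579 items, namely 7966 named genes, each read from its brightest kept probe, and 2613 probes without a gene name. Values below are normalized signals on the log2 scale, and changes are differences of group means on that scale given ± the standard error that limma estimated, from n = 3 arrays in each group. A change was called at a Benjamini-Hochberg adjusted p under 0.05 over all items. The labels do not state whether replicates are separate cultures. The p-values and standard errors therefore refer to the spread among samples within groups, and that spread may be technical. It was pooled over the 9 Cas, Cas/ErbB2 and ErbB2 arrays (6 residual degrees of freedom) and moderated across items. With 3 arrays against 3 no exact permutation test can go below p = 0.1, and precision is limited by the few arrays. Signals come from whole cultures, in which fewer cells of a kind and less RNA per cell cannot be told apart.

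One array stood apart. Mean raw signal was 2094.5 on Cas/ErbB2 array 3, against 1338.9 to 1619.4 on the Cas arrays. Its 95th percentile of raw signal was 7828, against 3701 to 4740 on the Cas arrays. Cas/ErbB2 arrays 1 and 2 were the lowest of the 6, with means of 1274 and 1247.2 and 95th percentiles of 3362 and 3355. The normalized signals of array 3 correlated at 0.970 and 0.972 with the other 2 Cas/ErbB2 arrays, which correlated at 0.986 with each other. The Cas arrays correlated at 0.989 to 0.990. The first principal component of the 6 arrays held 59.8% of the variance and parted the groups, and the second held 19.5% and parted this array from the rest. Quantile normalization, used throughout, forces the arrays onto a shared distribution, whereas scaling each array to its median leaves the wider range of this array in place. Counts for the lists are therefore also given under median scaling, and arrays are named where leaving out 1 of them changed a list's count of 3 or more calls by over 1.5 times. The cell type was checked against markers: all 10 mammary epithelial marker genes with a probe were detected on all 6 arrays. Both groups are of the same line, so this does not check the group labels.

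Cas/ErbB2 cells differed from Cas cells in 1750 of the 10579 items (16.5%), of which 813 were higher (7.69%) and 937 were lower (8.86%). The median change over all items was -0.03, and the median size of a change was 0.23. Called changes ran from -3.48 to 4.85. Of the called items 505 (4.77%) changed by 1 or more in size, 274 of them upward (2.59%) and 231 downward (2.18%). The arrays of the 2 groups did not overlap for 3522 items (33.3%). Of the 1750 called items 1732 were among these, and the choice of the 15 largest rises and falls required it. Lack of overlap is therefore given below as a description and adds no separate support to a call. Part of the calls rests on loss of detection. Of 615 items kept through Cas/ErbB2 detection alone 132 were called higher, and of 1287 items kept through Cas detection alone 261 were called lower. More items thus entered through Cas detection than through Cas/ErbB2 detection. Cas/ErbB2 arrays 1 and 2 detected the fewest probes of the 6 arrays (12864 and 13350) and Cas/ErbB2 array 3 the most (15984). The Cas arrays detected 13897 to 15214. Whether the sensitivity of single arrays led to this difference was not tested. Among the 8677 items detected on all 6 arrays, 681 were called higher and 676 lower. With the 6 compared arrays normalized and fitted alone, 1404 items were called, 659 higher and 745 lower. Under median scaling 276 items were called, 162 higher and 114 lower, which lowers the share of lower calls from 53.5% to 41.3%. Every gene among the 15 largest rises and the 15 largest falls named below was called the same way under each alternative setting that tested it. The 26 settings included median scaling and the omission of each array. The setting that required detection on all 6 arrays left out genes undetected on any of them, such as TMEM158, CBS and CALML3.

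**Figure D1:**
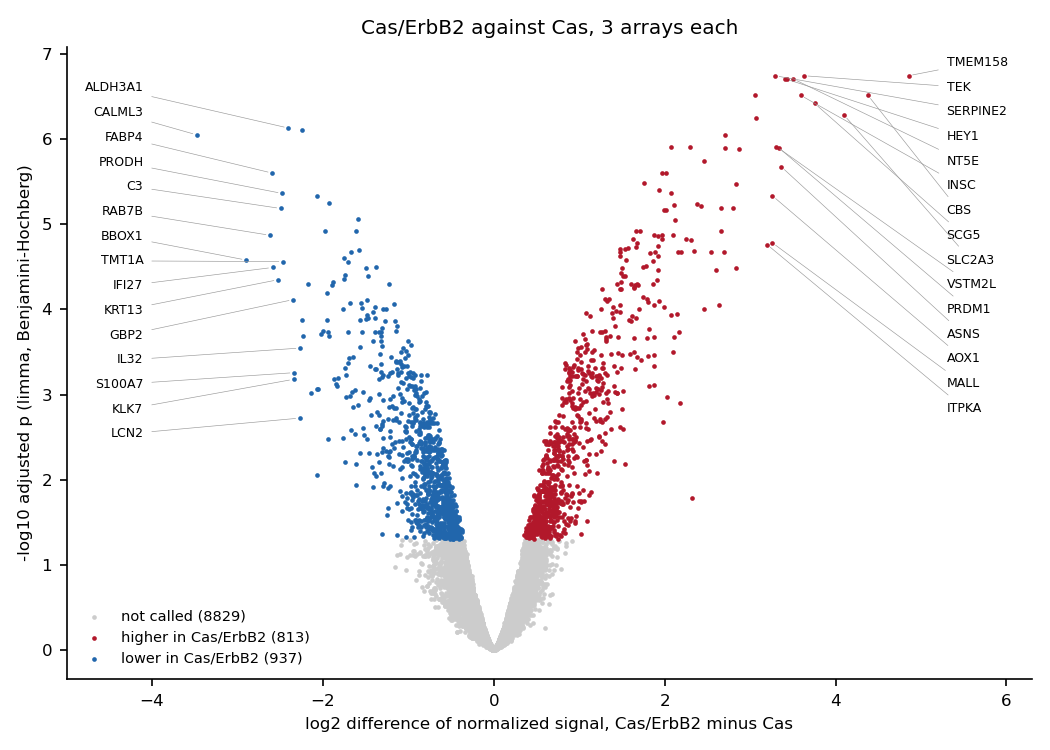
Each point is 1 of 10579 items: the horizontal axis gives the log2 difference of normalized signal, Cas/ErbB2 minus Cas (3 arrays each), and the vertical axis -log10 of the limma adjusted p. The 813 red items were called higher and the 937 blue items lower, and the labelled genes are the 15 largest rises and the 15 largest falls by this difference, from 4.85 for TMEM158 to -3.48 for CALML3, both undetected in 1 group, where the true level has only a bound.

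Neither the ERBB2 nor the BCAR1 transcript was called higher. The detected ERBB2 probe read 10.35, 10.23 and 9.85 on the Cas arrays and 8.95, 8.92 and 9.43 on the Cas/ErbB2 arrays. Every Cas/ErbB2 array was below every Cas array, a fall by 1.04 ± 0.18 (adjusted p = 0.00234, limma), and under median scaling the call was lost (adjusted p = 0.262). The other 2 ERBB2 probes were not detected on any of the 6 arrays. BCAR1 read 9.34, 9.56 and 9.10 on the Cas arrays and 8.95, 9.22 and 9.30 on the Cas/ErbB2 arrays, with overlapping groups (change -0.18 ± 0.23, adjusted p = 0.640). The probe of NGFR, the nerve growth factor receptor, whose extracellular part is used in some inducible ErbB2 constructs, was not detected on any of these arrays. Whether any of these probes can see an introduced sequence is not given, so they do not check the labels.

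The largest rises fell on genes of varied function. TMEM158, a transmembrane protein first described as induced by Ras, read 7.12, 7.33 and 7.25 on the Cas arrays, where it was not detected, and 12.23, 12.01 and 12.02 on the Cas/ErbB2 arrays. The groups lay far apart (4.85 ± 0.19, adjusted p = 1.81e-07). For a gene undetected on every array of a group the true level there has only an upper bound, taken per array as the higher of the lowest detected signal and the probe's own. On that bound TMEM158 was at least 16.7-fold higher in Cas/ErbB2 cells. NT5E, the cell surface enzyme that turns AMP into adenosine, was detected throughout and read 9.99, 10.35 and 10.12 against 13.65, 13.59 and 13.73. All 3 Cas/ErbB2 arrays were above all Cas arrays by a wide margin (3.50 ± 0.15, adjusted p = 1.97e-07).

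Several of these risers encode secreted or surface proteins. SCG5, a chaperone of prohormone convertase in neuroendocrine cells, rose by 3.76 ± 0.18 and TEK, the angiopoietin receptor TIE2 of endothelium, by 3.63 ± 0.14, with TEK detected on 2 of 3 Cas arrays. TEK arrays read 8.07, 8.04 and 8.39 for Cas and 11.91, 11.83 and 11.66 for Cas/ErbB2, with no overlap. Of 8 endothelial marker genes TEK and PECAM1 alone were detected on any of the 6 arrays, and PECAM1 changed by 0.10 ± 0.12 (adjusted p = 0.612). VSTM2L rose to at least 6.59-fold its bound in Cas cells. MALL, a membrane proteolipid of the MAL family, rose by 3.26 ± 0.26.

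Other large rises were in intracellular regulators and enzymes. INSC, an adaptor that orients the mitotic spindle, rose by 3.59 ± 0.16, and ITPKA, an inositol trisphosphate kinase that also bundles actin filaments, by 3.20 ± 0.26 (detected on 2 of 3 Cas arrays). PRDM1, the transcriptional repressor BLIMP1, was not detected in Cas cells and was at least 5.96-fold higher in Cas/ErbB2 cells. AOX1, an aldehyde oxidase, was likewise undetected in Cas cells and was at least 4.39-fold higher. The remaining genes of the 15 largest rises, CBS, SLC2A3, HEY1, ASNS and SERPINE2, are described with their pathways.

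**Figure D2:**
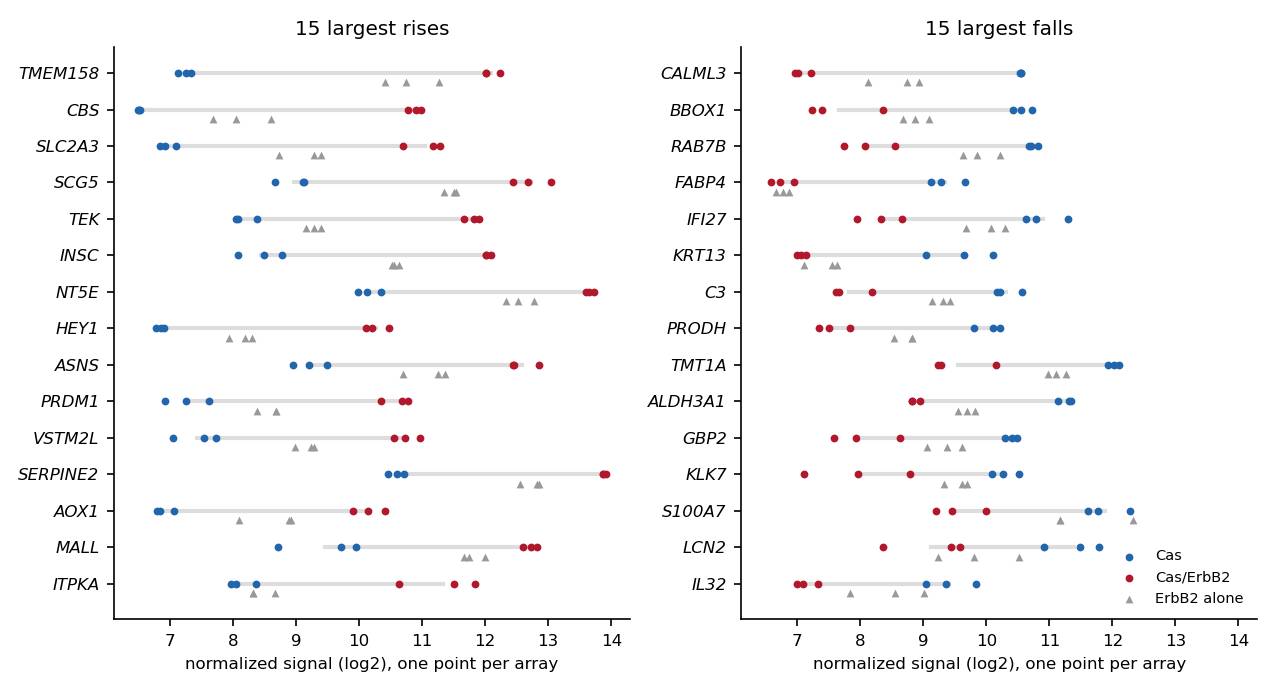
Normalized signal (log2, horizontal axis) of the 15 genes with the largest rises (left) and falls (right), 1 point per array for Cas (blue), Cas/ErbB2 (red) and, set slightly lower, ErbB2 alone (grey triangles); the grey bar joins the means of Cas and Cas/ErbB2. In all 30 genes the red and blue points do not overlap, which the choice of these genes required.

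Enzymes of serine, one-carbon and asparagine synthesis were among the genes with the largest rises. Of 16 listed genes 12 were measured, of which 9 were called higher and 1 lower, with a median change of 1.00 against -0.03 over all items. Of the 9 detected on all 6 arrays 8 were called higher and 0 lower (median 1.04). CBS, which joins serine and homocysteine to cystathionine, read 6.52, 6.50 and 6.49 on the Cas arrays, without detection, and 10.90, 10.98 and 10.78 on the Cas/ErbB2 arrays. It was at least 7.26-fold higher (4.38 ± 0.20, adjusted p = 3.07e-07), and a near-identical copy of CBS in the genome means that the probe may read both. ASNS, asparagine synthetase, read 9.21, 8.96 and 9.49 against 12.45, 12.45 and 12.85, a rise of 3.37 ± 0.20 (adjusted p = 2.12e-06) without overlap.

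PHGDH, the first enzyme of serine synthesis, read 10.18, 10.71 and 10.39 on the Cas arrays and 13.28, 13.39 and 13.23 on the Cas/ErbB2 arrays. It rose by 2.87 ± 0.17 (adjusted p = 1.31e-06), and PSAT1 (1.42) and PSPH (0.96), which complete that synthesis, were called higher too. In the mitochondrial folate cycle MTHFD2 rose by 1.88 ± 0.15, MTHFD1L by 0.85 and SHMT2 by 0.41, while PYCR1, which makes proline, rose by 1.04. The calls of PSPH, MTHFD1L and PYCR1 were lost under median scaling (adjusted p = 0.152, 0.294 and 0.143), and that of SHMT2 under 10 of the 26 alternatives. The cytosolic serine hydroxymethyltransferase SHMT1 went the other way (-1.61 ± 0.36, adjusted p = 0.0116), with detection on 1 of 3 Cas/ErbB2 arrays, and lost its call under median scaling (adjusted p = 0.301) and without a detection filter (adjusted p = 0.0601). PRODH, the enzyme that degrades proline, was one of the largest falls: it read 9.81, 10.21 and 10.10 on the Cas arrays and was undetected on the Cas/ErbB2 arrays, at least 3.93-fold lower. Under median scaling 5 of the 12 listed genes were called higher and 0 lower, and without Cas/ErbB2 array 3 the counts were 9 and 2.

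Aminoacyl-tRNA synthetases, which charge tRNAs with their amino acids, were called higher for 9 of 18 measured genes and lower for 0, with a median change of 0.47. GARS1, for glycine, read 12.24, 12.32 and 12.17 against 13.88, 13.88 and 13.86, a rise of 1.64 ± 0.13 (adjusted p = 1.5e-05). The groups did not overlap. MARS1, for methionine, rose by 1.31 ± 0.15, and AARS1, TARS1 and YARS1 by 0.89 each. QARS1, for glutamine, did not pass the test (-0.33, adjusted p = 0.0962), and neither did RARS1 (0.09, adjusted p = 0.685). Under median scaling 2 of the 18 were called higher, GARS1 and MARS1, and the adjusted p was 0.169 for AARS1, 0.230 for TARS1 and 0.178 for YARS1. Without Cas/ErbB2 array 3 the counts were 9 higher and 1 lower. Of 8 measured amino acid transporters 0 were called higher by limma (5 of the 8 had an unadjusted p under 0.05), and SLC7A5, the light chain of the large neutral amino acid carrier, was called lower (-0.64 ± 0.13, adjusted p = 0.00607, and 0.382 under median scaling, where 0 of the 8 were called and 2 had an unadjusted p under 0.05). The count of 0 higher depended on the setting. With the authors' processed intensities 2 of the 8 were called higher and 2 lower. Of the 6 detected on all 6 arrays 2 were called higher and 1 lower.

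ATF4, a transcription factor of the integrated stress response, is known to drive many of these enzymes, and its list had 6 of 12 measured genes called higher and 0 lower (median 0.47). STC2, a secreted glycoprotein induced by endoplasmic reticulum stress, read 8.81, 8.32 and 8.52 against 11.57, 11.60 and 11.67. It rose by 3.06 ± 0.15 (adjusted p = 5.7e-07), with the groups well apart. TRIB3, a pseudokinase induced by ATF4 and CHOP, rose by 2.71 ± 0.15 from 9.74, 9.73 and 9.30 to 12.38, 12.22 and 12.29. DDIT3, which encodes CHOP, was undetected in Cas cells and at least 1.95-fold higher in Cas/ErbB2 cells, and its adjusted p of 0.00302 became 0.171 under median scaling. The transcript of ATF4 itself rose by 0.38 (adjusted p = 0.0413), a call lost under 14 of the 26 alternatives. Under median scaling 2 of the 12 genes were called higher, and without Cas/ErbB2 array 3, 9 were.

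ATF4 binds, with partners of the C/EBP family, a composite element that can be written TGATGNAA, and this word was looked up on both strands of RefSeq promoters (GRCh38.p14). Each window had 300 bases, 250 before and 50 after the start of the gene. It was found in 3.67% of 27305 promoters of the table, in 1.75% of 6614 tested genes that had a promoter there, in 2.50% of those called higher and in 2.40% of those called lower. In the serine, synthetase and ATF4 lists together it was found for 6 of 20 genes called higher (30.0%) and for 3 of 14 not called (21.4%). These shares are descriptions, since the lists were drawn up from genes known to respond to this factor, and a match is not a shown binding site. The 6 windows of called genes follow because they show where the word lies in the genes whose signal rose together; each is read 5′ to 3′ on the strand of the gene, and capitals mark the word.
AARS1: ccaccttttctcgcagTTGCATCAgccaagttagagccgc
ASNS: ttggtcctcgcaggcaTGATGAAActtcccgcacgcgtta
IARS1: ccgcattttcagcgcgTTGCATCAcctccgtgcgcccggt
MARS1: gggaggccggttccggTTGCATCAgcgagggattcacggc
MTHFD1L: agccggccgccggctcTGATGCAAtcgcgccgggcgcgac
TARS1: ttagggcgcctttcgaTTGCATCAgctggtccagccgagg

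The ASNS window lies at chr7:97872453-97872492 on the minus strand, with the first base of the word at -68 from the gene start, in the proximal promoter. The AARS1 window is chr16:70289670-70289709 (minus strand, word at -187) and the IARS1 window chr9:92293687-92293726 (minus strand, word at -13). The MARS1 window is chr12:57488048-57488087 (plus strand, word at -4), the MTHFD1L window chr6:150866341-150866380 (plus strand, word at -129) and the TARS1 window chr5:33440951-33440990 (plus strand, word at 3, past the start). In ASNS and MTHFD1L the word reads on the strand of the gene, and in the other 4 on the opposite strand.

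Chaperones and folding enzymes of the endoplasmic reticulum were called higher for 6 of 14 measured genes and lower for 0 (median 0.43). XBP1, a transcription factor of the unfolded protein response, averaged 11.42 ± 0.27 (SD, n = 3) on the Cas arrays and 13.07 ± 0.12 on the Cas/ErbB2 arrays (1.64 ± 0.16, adjusted p = 5.54e-05). HSPA5, the main luminal chaperone, rose by 1.59 ± 0.17 (adjusted p = 0.000134), and the groups overlapped for neither gene. Calreticulin (CALR) did not pass the test (-0.29, adjusted p = 0.203). Under median scaling 2 of the 14 were called higher, without Cas/ErbB2 array 3, 9 were, and without Cas array 2 or Cas/ErbB2 array 2, 3 were.

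**Figure D3:**
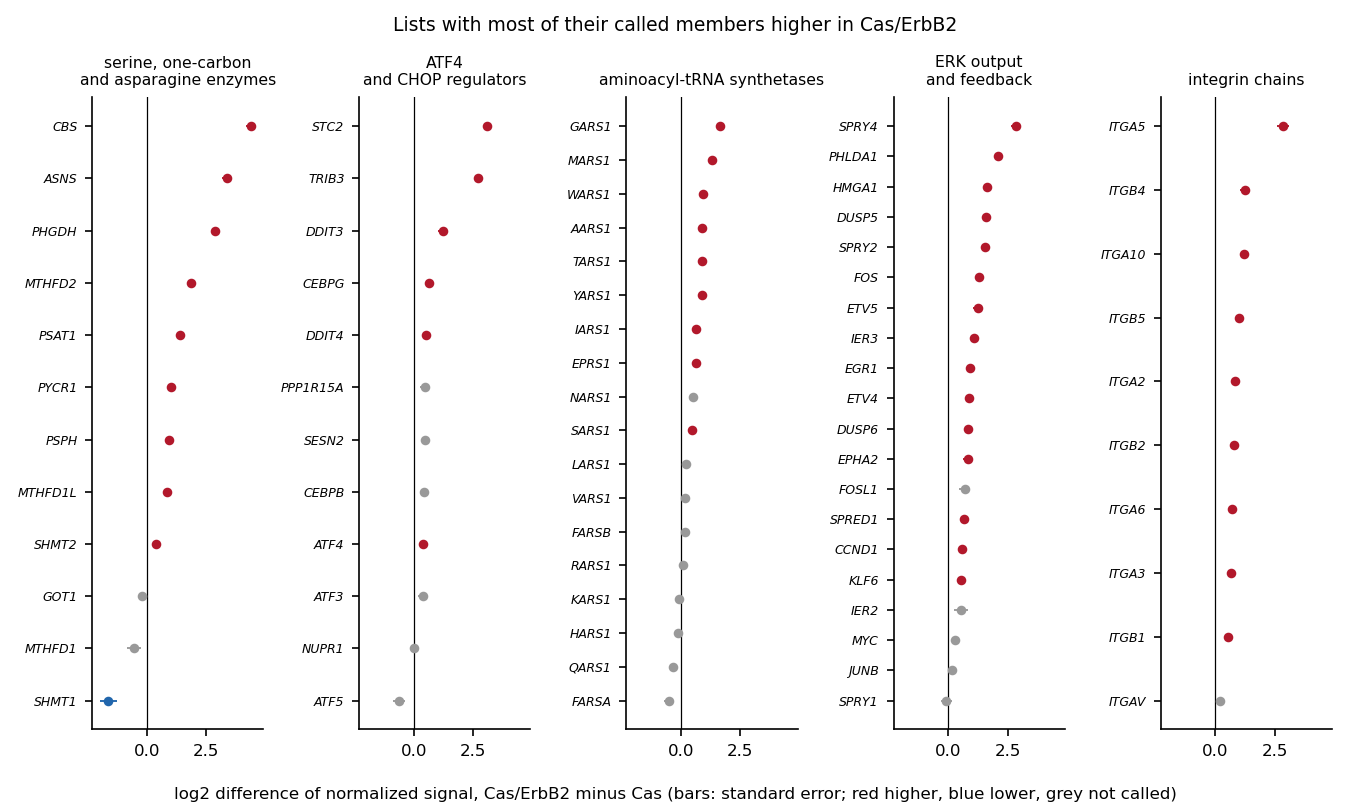
Measured members of 5 gene lists in which most called genes were higher, each with its log2 difference of normalized signal (Cas/ErbB2 minus Cas, 3 arrays each, horizontal axis) and standard error; red genes were called higher, blue lower and grey not called. CBS (4.38), ASNS (3.37), STC2 (3.06), SPRY4 (2.84) and ITGA5 (2.84) lie farthest to the right, and SHMT1 (-1.61) is the 1 gene called lower.

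Most transcripts that report ERK signalling were called higher. Of 20 measured genes of the ERK output list 15 were called higher and 0 lower, with a median change of 0.86. SPRY4, a feedback inhibitor of Ras-ERK signalling, read 9.96, 10.13 and 9.61 on the Cas arrays and 12.95, 12.78 and 12.49 on the Cas/ErbB2 arrays. It rose by 2.84 ± 0.18 (adjusted p = 3.38e-06) without overlap. PHLDA1 rose by 2.11 ± 0.15, the chromatin protein HMGA1 by 1.65 ± 0.16, the ERK phosphatase DUSP5 by 1.61 ± 0.15 and SPRY2 by 1.54 ± 0.13. The early response factors FOS and EGR1 rose by 1.30 and 0.90, the ETS factors ETV5 and ETV4 by 1.25 and 0.86, and CCND1, cyclin D1, by 0.59. MYC did not pass the test (0.27, adjusted p = 0.208), and neither did JUNB (0.17, adjusted p = 0.592). Under median scaling 6 of the 20 were called higher, the 5 named first and FOS, and the adjusted p was 0.146 for EGR1, 0.242 for ETV5 and 0.151 for ETV4. The call of CCND1 was lost under 9 of the 26 alternatives. Without Cas/ErbB2 array 3, 16 of the 20 were called higher.

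Ligands and feedback regulators of the ErbB family were called higher for 5 of 10 measured genes, with ERBB2 itself the 1 called lower. TGFA, a ligand of the EGF receptor, read 10.08, 10.11 and 9.52 against 10.99, 11.57 and 11.48, a rise of 1.44 ± 0.20 (adjusted p = 0.000546). HBEGF, another ligand, rose by 1.12 ± 0.22 with detection on 1 of 3 Cas arrays, and ERRFI1, an inhibitor of the receptor kinases, by 1.02 ± 0.13. For these 3 genes the groups did not overlap, and under median scaling their adjusted p was 0.0583, 0.260 and 0.134. The receptor genes EGFR (-0.17, adjusted p = 0.397) and ERBB3 (0.28, adjusted p = 0.355) did not pass the test. Under median scaling none of the 10 was called (0 higher, 0 lower; 5 with an unadjusted p under 0.05), and without Cas/ErbB2 array 3 the counts were 4 higher and 2 lower of 11 measured. Without Cas array 1, 3 of the 10 were called higher. In the PI3K and mTOR list 4 of 14 measured genes were called higher and 0 lower, led by IRS2, an insulin receptor substrate, which rose by 1.27 ± 0.15 (adjusted p = 0.000185). AKT1 changed by -0.11 (adjusted p = 0.682). Under median scaling, or without Cas array 2, Cas array 3 or Cas/ErbB2 array 1, 2 of this list were called higher.

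Integrins, the receptors through which cells bind matrix and to which p130Cas responds, were called higher for 9 of 10 measured chains and lower for 0, with a median change of 0.81. ITGA5, the alpha chain of the fibronectin receptor, read 9.12, 10.24 and 9.50 on the Cas arrays and 12.54, 12.54 and 12.30 on the Cas/ErbB2 arrays. The rise was 2.84 ± 0.26 (adjusted p = 3.25e-05), with the groups apart. ITGB4, the hemidesmosomal beta chain, rose by 1.24 ± 0.20 (adjusted p = 0.00193). ITGA10 rose by 1.21, ITGB5 by 1.01, ITGA2 by 0.83, ITGA6 by 0.70, ITGA3 by 0.66 and ITGB1 by 0.55. ITGAV did not pass the test (0.18, adjusted p = 0.463). Under median scaling 2 of the 10 were called, ITGA5 and ITGB4, while the adjusted p was 0.121 for ITGA10, 0.0854 for ITGB5, 0.195 for ITGA2 and 0.438 for ITGA6. The calls of ITGA3 and ITGB1 were lost under 7 and 9 of the 26 alternatives. Without Cas/ErbB2 array 3, 9 chains were called higher and 0 lower.

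Most genes for the proteins that bind p130Cas or build focal adhesions were not called. In the p130Cas complex list 3 of 15 measured genes were called higher and 0 lower: BCAR3 (1.08 ± 0.15), PTK2B, the FAK relative PYK2 (0.74), and PTPN12, a phosphatase of p130Cas (0.72). PTK2, which encodes FAK, did not pass the test (-0.19, adjusted p = 0.353). Of 17 focal adhesion and actin linker genes 3 were called higher, among them paxillin (PXN, 0.72 ± 0.17, adjusted p = 0.0145), and vinculin (VCL) did not pass (0.33, adjusted p = 0.116). The median changes of these lists were 0.09 and 0.33. Under median scaling none of either list was called (0 genes; 3 of each had an unadjusted p under 0.05), and the adjusted p of BCAR3 was then 0.165. The calls of PTK2B, PTPN12 and PXN were lost under 7, 5 and 3 of the 26 alternatives. Without Cas array 1 or Cas array 2, 1 gene of the p130Cas list was called higher, and in the focal adhesion list 1 was without Cas array 3 and 5 were without Cas/ErbB2 array 3.

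Matrix ligands and proteases changed in part. Of 10 measured basement membrane and hemidesmosome genes 4 were called higher and 1 lower, and of the 9 detected on all 6 arrays 3 and 1. LAMB3, a chain of laminin-332 that ITGB4 binds, averaged 13.09 ± 0.15 (SD, n = 3) on the Cas arrays and 15.01 ± 0.20 on the Cas/ErbB2 arrays, a rise of 1.92 ± 0.15 (adjusted p = 1.37e-05) without overlap. COL4A1, a collagen IV chain, was undetected in Cas cells and at least 2.18-fold higher. Under median scaling, or without Cas array 1, Cas array 3 or Cas/ErbB2 array 1, 2 genes of this list were called higher. Of 11 measured matrix proteases and inhibitors 4 were called higher: the stromelysin MMP10 (at least 2.94-fold), the collagenase MMP1 (at least 2.25-fold), the metalloproteinase ADAM19 (1.83 ± 0.16) and the inhibitor TIMP1 (0.87 ± 0.12). MMP7, matrilysin, fell to an undetected level (at least 1.60-fold lower). MMP10, MMP1 and MMP7 were kept through detection in 1 group alone. Of the 8 genes detected on all 6 arrays 2 were called higher and 0 lower (median 0.12, against 0.27 for the 11). Without the detection filter 4 of 20 were called higher and 1 lower (median 0.07). Under median scaling MMP10 and ADAM19 were called higher and MMP7 lower, and the adjusted p of MMP1 and TIMP1 was 0.0583 and 0.220.

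In the list for the plasminogen system, which activates a surface protease, 5 of 9 measured genes were called higher and 1 lower. SERPINE2, an inhibitor of thrombin and urokinase, read 10.72, 10.46 and 10.61 against 13.87, 13.92 and 13.87. It rose by 3.29 ± 0.13 (adjusted p = 1.81e-07), with the groups far apart. PLAU, urokinase itself, rose by 1.48 ± 0.13 (adjusted p = 2.14e-05), while its receptor PLAUR did not pass the test (0.06, adjusted p = 0.905). SERPINA3 was the 1 listed gene called lower (-0.65, adjusted p = 0.00363, and 0.386 under median scaling). It inhibits chymotrypsin-like proteases and is not itself part of the plasminogen system. Under median scaling 2 of the 9 were called, both higher, and without Cas array 2 or Cas/ErbB2 array 1, 3 were called higher.

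Of 12 measured targets of YAP and of the serum response factor 4 were called higher and 2 lower (median 0.02). AXL, a receptor tyrosine kinase, rose by 0.70, the matricellular protein CCN2 by 0.66, the tissue factor gene F3 by 0.57 and ACTA2, smooth muscle actin, by 0.53, while AJUBA fell by 0.60. TAGLN, an actin-binding protein and target of the serum response factor, fell from 10.47, 10.39 and 9.79 to 7.47, 8.17 and 8.30 (-2.24 ± 0.25, adjusted p = 0.000132). Under median scaling 0 of the 12 were called higher and 1, TAGLN, lower. Without any 1 of Cas arrays 1, 2 and 3 or Cas/ErbB2 array 1, 2 were called higher, and without Cas/ErbB2 array 2, 1 was. Of 11 mesenchymal markers and regulators of epithelial-mesenchymal transition 2 were called higher and 0 lower, SNAI2 (0.84 ± 0.11) and TWIST2 (0.59), and under median scaling 0 were (2 with an unadjusted p under 0.05). The adjusted p of SNAI2 was then 0.187, and the call of TWIST2 was lost under 10 of the 26 alternatives. Vimentin (VIM) did not pass the test (0.26, adjusted p = 0.159).

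Glucose uptake and hypoxia genes were called higher for 11 of 26 measured genes and lower for 1 (median 0.34). SLC2A3, the high-affinity glucose transporter GLUT3, was undetected in Cas cells (6.92, 7.09 and 6.84) and read 11.18, 11.29 and 10.69 in Cas/ErbB2 cells. It was at least 8.15-fold higher (4.10 ± 0.20, adjusted p = 5.22e-07). The other glucose transporter, SLC2A1, was the 1 gene called lower (-0.48), a call lost under 11 of the 26 alternatives. PFKFB4, which sets the level of a glycolytic activator, rose by 1.64 ± 0.20 and NDRG1, a hypoxia target, by 1.31 ± 0.15. The enzymes of the main glycolytic chain with the brightest probes did not pass the test: LDHA changed by 0.12, GAPDH by 0.18 and ENO1 by 0.02 (adjusted p = 0.554, 0.327 and 0.941). Under median scaling 3 of the 26 were called higher and 0 lower, and without Cas/ErbB2 array 3 the counts were 12 and 0.

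**Figure D4:**
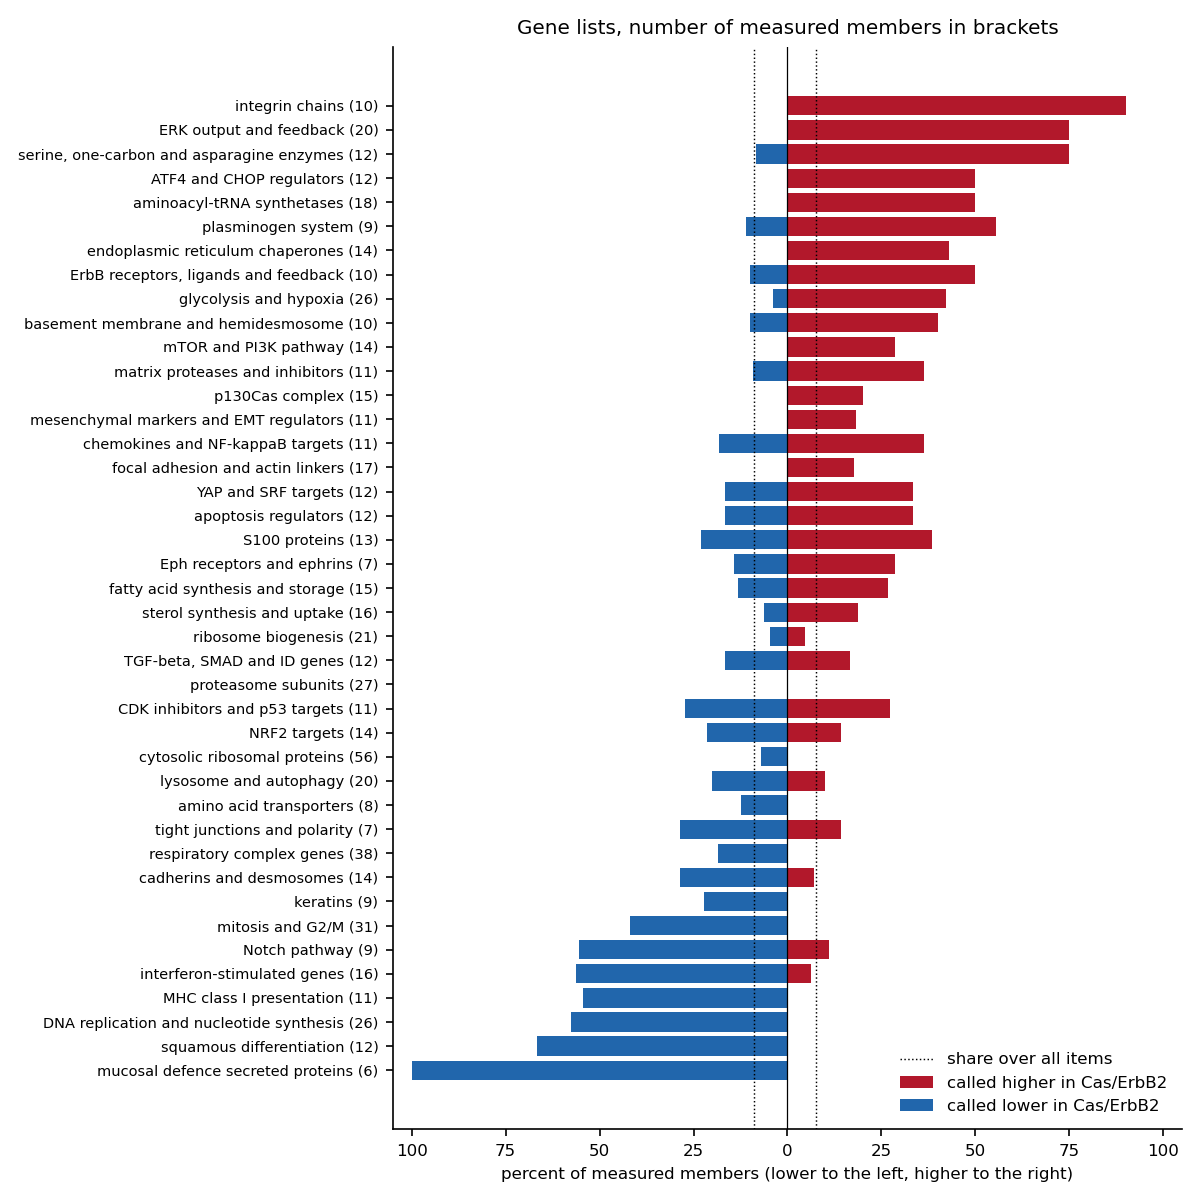
Share of the measured members (in brackets) of 41 gene lists called higher (red, to the right) or lower (blue, to the left) in Cas/ErbB2 cells, 3 arrays against 3, in percent; dotted lines mark the shares over all items, 7.69% higher and 8.86% lower. Integrin chains (90%), ERK output and serine enzymes (75% each) had the greatest shares higher, and mucosal defence proteins (100%) and squamous differentiation (66.7%) the greatest shares lower.

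In the list for DNA replication and nucleotide synthesis 15 of 26 measured genes were called lower and 0 higher, with a median change of -0.66. Of the 18 detected on all 6 arrays 9 were called lower. The thymidine kinase TK1 read 9.71, 9.59 and 9.41 on the Cas arrays and 7.44, 7.11 and 8.17 on the Cas/ErbB2 arrays, with detection on 1 of the latter (adjusted p = 0.000181). MCM2, a subunit of the replicative helicase, read 9.39, 9.36 and 8.63 on the Cas arrays and 7.42, 7.26 and 7.74, without detection, on the Cas/ErbB2 arrays (at least 2.08-fold lower, adjusted p = 0.000358). MCM10 fell by 1.19 ± 0.16, TYMS by 1.17, MCM4 by 1.02 and PCNA, the sliding clamp, by 0.78. RRM1 (-0.25, adjusted p = 0.213) and MCM6 (-0.27, adjusted p = 0.179) did not pass the test. Under median scaling 4 of the 26 were called lower (TK1, MCM2, MCM10 and TYMS), with an adjusted p of 0.132 for MCM4 and 0.560 for PCNA, and without Cas/ErbB2 array 3, 15 were.

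In the mitosis list 13 of 31 measured genes were called lower and 0 higher, with a median change of -0.53. KIF20A, a kinesin of cytokinesis, read 10.80, 10.86 and 10.67 against 9.75, 9.94 and 9.72 (-0.97 ± 0.16, adjusted p = 0.00211). CDC20, the activator of the anaphase-promoting complex, fell by 0.93 ± 0.15 and AURKB, a mitotic kinase, by 0.86 ± 0.17. The groups did not overlap for any of the 3. CDK1 and TOP2A were not called (TOP2A -0.57, adjusted p = 0.108). Under median scaling none of the 31 was called in either direction (0 genes; 7 with an unadjusted p under 0.05), with adjusted p of 0.147, 0.273 and 0.383 for KIF20A, CDC20 and AURKB, and without Cas/ErbB2 array 3, 20 were called lower. Of the cell cycle inhibitors and p53 targets 3 of 11 measured were called higher and 3 lower. GADD45A rose by 1.62 ± 0.17 and TP53I3 by 1.25 ± 0.13, while CDKN1A, p21, did not pass the test (0.13, adjusted p = 0.536) and SESN1 fell by 1.57 ± 0.19 (adjusted p under median scaling 0.0788). Under median scaling 2 of these 11 were called higher and 0 lower, and without Cas array 2 or 3 or Cas/ErbB2 array 1 or 2, 1 was called lower.

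Genes of squamous differentiation and mucosal defence were among the large falls. CALML3, a calmodulin-like protein of stratified epithelium, read 10.55, 10.55 and 10.53 on the Cas arrays and 7.02, 6.97 and 7.22, without detection, on the Cas/ErbB2 arrays. It was at least 5.57-fold lower (adjusted p = 8.94e-07). Of 12 measured genes of the squamous list (22 listed) 8 were called lower and 0 higher, with a median change of -0.78. Without the detection filter 4 of the 22 were called lower and the median was -0.20; of the 9 detected on all 6 arrays 5 were called lower (median -0.71). KLK7, a protease that sheds cornified cells, fell by 2.34 ± 0.33 and was detected on 1 of 3 Cas/ErbB2 arrays. SPRR3, a cornified envelope protein, fell from 10.09, 10.15 and 8.87 to 7.80, 7.61 and 7.51, without detection, and members of the SPRR2 group fell too, though their near-identical sequences can share probes. SPRR1A and SPRR1B did not pass the test (-0.03 and 0.37). Under median scaling 3 of the 12 were called lower, without Cas/ErbB2 array 3, 6 of 13, without Cas array 1, 4 of 12, and without Cas array 2, 5 of 13.

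Among keratins 2 of 9 measured genes were called, both lower, and 1 under median scaling. Changes ran from -2.53 to 0.66, and the largest rise was not called. Of the 8 detected on all 6 arrays 1 was called higher and 1 lower, and without Cas/ErbB2 array 3 the counts were 1 and 2. KRT13, of mucosal squamous epithelium, read 10.11, 9.64 and 9.04 and was undetected in Cas/ErbB2 cells at a mean of 7.07 (at least 2.89-fold lower, adjusted p = 4.48e-05). KRT15, of basal cells, fell by 0.68, and the basal keratins KRT5 (-0.24, adjusted p = 0.262) and KRT14 (-0.03, adjusted p = 0.899) did not pass the test. Of 14 measured cadherin and desmosome genes 4 were called lower and 1 higher. DSG3 fell by 0.86 ± 0.15 and DSP, desmoplakin, by 0.72 ± 0.13, and under median scaling 0 of the 14 were called (4 with an unadjusted p under 0.05; adjusted p = 0.125 and 0.199 for these).

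All 6 measured genes of the mucosal defence list, of 15 listed, were called lower, with a median change of -1.68. Without the detection filter the same count of 6 was called lower of all 15, with a median of -0.21, and of the 4 detected on all 6 arrays 4 were called lower (median -1.36). C3, the central complement component, read 10.17, 10.57 and 10.22 against 7.62, 7.67 and 8.18, with detection on 1 of 3 Cas/ErbB2 arrays (-2.49 ± 0.18, adjusted p = 6.53e-06). LCN2, which binds bacterial siderophores, fell by 2.27 ± 0.37. SAA1, an acute phase protein, fell from 12.53, 12.79 and 12.63 to 10.64, 10.68 and 10.45 (-2.06 ± 0.14, adjusted p = 4.64e-06), and CFB, complement factor B, by 1.30 ± 0.22. S100A7, the antimicrobial protein psoriasin, fell by 2.34 ± 0.32 and may share its probe with a close paralog. In the wider S100 list 5 of 13 measured genes were called higher and 3 lower. The higher calls depended on the setting: under median scaling 0 of the 13 were called higher and 1 lower (6 with an unadjusted p under 0.05), without Cas array 1 or Cas/ErbB2 array 1, 3 were called higher, without Cas array 2 or Cas/ErbB2 array 2, 2, and without Cas array 3, 1. Under median scaling 4 of the 6 defence genes were called lower, and without Cas/ErbB2 array 3 all 6.

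Interferon-stimulated genes were called lower for 9 of 16 measured genes and higher for 1, with a median change of -0.76. Of the 7 detected on all 6 arrays 2 were called lower and 1 higher (median -0.39). IFI27 read 10.78, 11.30 and 10.63 on the Cas arrays and 7.95, 8.67 and 8.33 on the Cas/ErbB2 arrays. It fell by 2.59 ± 0.23 (adjusted p = 3.22e-05), without overlap. ISG15, a ubiquitin-like modifier, fell to an undetected level (at least 1.85-fold lower), as did IFIT1 (at least 1.71-fold lower), and IFI6 fell by 1.45 ± 0.22. ISG20, an exonuclease, was the 1 gene called higher (1.92 ± 0.17, adjusted p = 3.42e-05). GBP2, an interferon-induced GTPase outside the list, fell by 2.35 ± 0.24 with detection on 1 of 3 Cas/ErbB2 arrays. The factors IRF7 (0.09, adjusted p = 0.80) and IRF9 (0.33, adjusted p = 0.149) did not pass the test. Under median scaling 4 of the 16 were called lower and 1 higher, and without Cas/ErbB2 array 3, 11 lower and 2 higher.

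Of 11 measured genes of antigen presentation by MHC class I 6 were called lower and 0 higher (median -0.58). TAP1, the peptide transporter, read 11.08, 11.38 and 10.99 against 9.72, 9.94 and 10.18 (-1.21 ± 0.15, adjusted p = 0.000357). The immunoproteasome subunit PSMB10 fell by 0.84 ± 0.14. The shared light chain B2M did not pass the test (-0.33, adjusted p = 0.136), and the class I heavy chains are similar enough in sequence to share probes. Under median scaling 0 of the 11 were called (6 with an unadjusted p under 0.05; adjusted p = 0.134 for TAP1 and 0.180 for PSMB10), and without Cas/ErbB2 array 3, 7 were called lower. None of the 27 measured proteasome subunits of the constitutive particle passed the test with limma (0 higher, 0 lower; 3 with an unadjusted p under 0.05), and under median scaling 0 had an unadjusted p under 0.05. Without Cas/ErbB2 array 3, 3 were called lower.

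Cytokines split. Of 11 measured chemokines and NF-kappaB targets 4 were called higher and 2 lower, and under median scaling 3 and 2. Among the 7 detected on all 6 arrays 2 were called higher and 1 lower. The cytokine IL1A read 10.93, 11.02 and 11.24 against 12.52, 12.92 and 12.84 (1.69 ± 0.16, adjusted p = 5.19e-05), and the chemokine CCL20 rose by 1.67 ± 0.16. CXCL16 fell from 10.09, 9.84 and 9.40 to 7.42, 7.36 and 8.01 (-2.18 ± 0.21, adjusted p = 5.08e-05), with detection on 1 of 3 Cas/ErbB2 arrays, and CCL5 fell by 1.74 ± 0.16. For none of these 4 did the groups overlap. IL32, a cytokine outside the list, was undetected in Cas/ErbB2 cells and at least 2.54-fold lower. NFKBIA, the feedback inhibitor of NF-kappaB, did not pass the test (-0.24, adjusted p = 0.301). Leukocyte marker genes were detected for 3 to 4 of 9 on each of the 6 arrays, with a summed signal of 4929 to 6299 on the Cas arrays and 8944 to 12180 on the Cas/ErbB2 arrays. CD68 and CSF1R rose (1.36 and 1.13; adjusted p under median scaling 0.0153 and 0.0861), PTPRC was not detected on these arrays, and the part of other cells in these results was not tested. Fibroblast markers were detected for 3 to 5 of 10, with a summed signal of 3273 to 3567 on the Cas arrays and 2682 to 2917 on the Cas/ErbB2 arrays.

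Notch pathway genes moved in opposite directions. HEY1, a repressor induced by Notch and by BMP signals, was undetected in Cas cells (6.79, 6.85 and 6.91) and read 10.21, 10.10 and 10.48 in Cas/ErbB2 cells, at least 4.72-fold higher (adjusted p = 1.97e-07). Of the other measured genes 5 were called lower: the receptor NOTCH1 fell by 1.38 ± 0.18, the ligand JAG2 by 1.21 ± 0.19, the modifier LFNG by 1.85 ± 0.26, HES2 by 0.94 and HES4 by 0.72 (adjusted p under median scaling 0.155 and 0.296 for the last 2). NOTCH1 read 11.38, 11.52 and 11.52 against 10.31, 10.19 and 9.78, without overlap. HES1 (0.43, adjusted p = 0.106) and JAG1 (0.48, adjusted p = 0.0907) did not pass the test. Under median scaling 1 of the 9 was called higher and 3 lower, and without Cas/ErbB2 array 3 the counts were 1 and 5. Among the 7 detected on all 6 arrays 0 were called higher and 4 lower. Among TGF-beta and ID genes 2 of 12 were called higher and 2 lower, and under median scaling 1 and 2. The paralogs ID1 and ID3, inhibitors of helix-loop-helix factors, went apart, ID1 by 1.13 ± 0.17 and ID3 by -1.58 ± 0.13, and the coreceptor TGFBR3 fell by 1.75 ± 0.15.

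Of 12 measured apoptosis regulators 4 were called higher and 2 lower, and under median scaling 2 and 0. MCL1, an anti-apoptotic BCL2 relative, read 12.74, 13.19 and 12.84 against 14.21, 14.29 and 14.26 (1.33 ± 0.14, adjusted p = 7.89e-05). The decoy receptor TNFRSF6B rose by 1.86 ± 0.18. PMAIP1, the pro-apoptotic NOXA, was undetected in Cas cells and at least 3.26-fold higher, with 8.90, 9.73 and 10.55 on the Cas/ErbB2 arrays and an adjusted p of 0.0652 under median scaling. EFNB2, a ligand of Eph receptors, rose by 1.67 ± 0.18, and 2 of 7 measured Eph and ephrin genes were called higher and 1 lower (1 and 0 under median scaling).

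**Figure D5:**
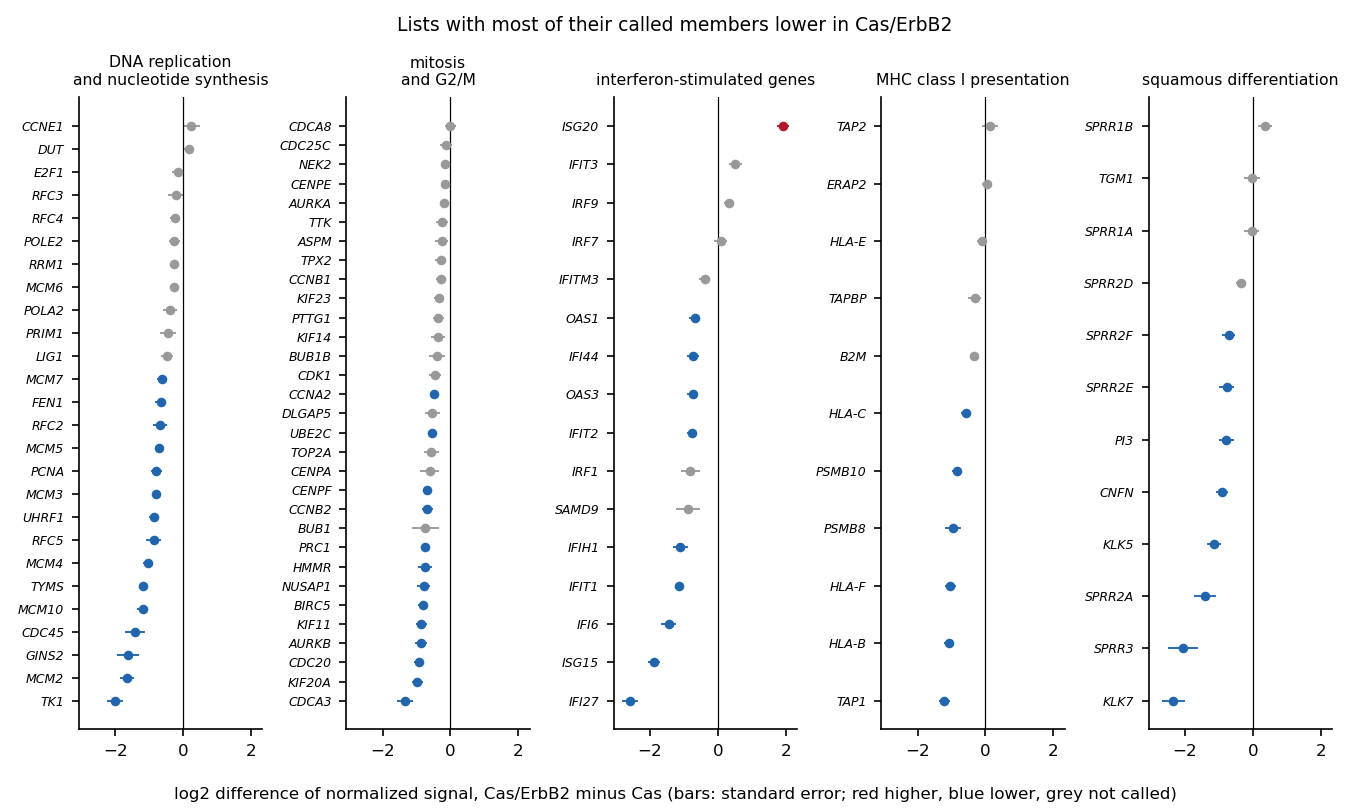
Measured members of 5 gene lists in which most called genes were lower, each with its log2 difference of normalized signal (Cas/ErbB2 minus Cas, 3 arrays each, horizontal axis) and standard error; red genes were called higher, blue lower and grey not called. IFI27 (-2.59) and KLK7 (-2.34) lie farthest to the left, and ISG20 (1.92) is the 1 gene called higher.

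Of 14 measured targets of NRF2, the regulator of antioxidant enzymes, 2 were called higher and 3 lower. ALDH3A1, an aldehyde dehydrogenase, read 11.14, 11.35 and 11.31 against 8.82, 8.94 and 8.82 (-2.41 ± 0.13, adjusted p = 7.43e-07). AKR1C3 and AKR1C2, close paralogs that may share probes, fell by 0.60 and 0.54, while the malic enzyme ME1 rose by 1.07 and the exporter ABCC3 by 0.87. NQO1 did not pass the test (-0.36, adjusted p = 0.0780). Under median scaling ALDH3A1 alone was called (0 higher, 1 lower), and without Cas array 1, Cas array 3 or Cas/ErbB2 array 1 the lower count was 1.

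In fatty acid synthesis and storage 4 of 15 measured genes were called higher and 2 lower (median 0.14), and under median scaling 1 and 1. ANGPTL4, a secreted inhibitor of lipoprotein lipase, rose by 2.25 ± 0.18, the acetyl-CoA synthetase ACSS2 by 1.08 ± 0.12 and the desaturase FADS1 by 1.02 ± 0.16 (adjusted p under median scaling 0.000438, 0.0823 and 0.192). CD36, a fatty acid receptor, was undetected in Cas/ErbB2 cells and at least 1.51-fold lower, and FASN did not pass the test (0.02, adjusted p = 0.955). Outside the list FABP4, a fatty acid carrier, was undetected in Cas/ErbB2 cells and at least 2.43-fold lower. Among the remaining largest falls BBOX1, the last enzyme of carnitine synthesis, fell by 2.90 ± 0.25 and RAB7B, a GTPase of endosome to Golgi transport, by 2.62 ± 0.21, each with detection on 1 of 3 Cas/ErbB2 arrays, and TMT1A, a thiol methyltransferase, changed by -2.47 ± 0.22.

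The ErbB2 arrays without Cas give a further reference, although they share the Cas/ErbB2 arrays with the contrast above, so the values are set side by side and no agreement between the contrasts is counted. Cas/ErbB2 minus ErbB2, in the same fit, gave 493 called items (4.66%), 225 higher (2.13%) and 268 lower (2.53%). CBS averaged 8.11 on the ErbB2 arrays and was 2.77 higher in Cas/ErbB2 (adjusted p = 6.66e-05). It was detected on 1 of 3 ErbB2 arrays, so its level there lies near background. TEK was 2.51 higher (adjusted p = 1.88e-05) and ITPKA 2.89 higher (adjusted p = 0.000495). NT5E averaged 12.54 on the ErbB2 arrays, 1.11 below Cas/ErbB2 (adjusted p = 0.00313), and MALL 11.80, where the difference of 0.92 did not pass the test (adjusted p = 0.0767).

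Among genes that fell, FABP4 and KRT13 were undetected on the ErbB2 arrays as well as on the Cas/ErbB2 arrays, so no difference is given for them. S100A7 averaged 11.55 on the ErbB2 arrays and 9.55 on the Cas/ErbB2 arrays, lower in Cas/ErbB2 (-2.01, adjusted p = 0.00637). SAA1 averaged 12.34 on the ErbB2 arrays and was likewise lower in Cas/ErbB2 (-1.75, adjusted p = 0.00017). For PFKFB4 (Cas/ErbB2 minus ErbB2 -0.03, adjusted p = 0.96), HBEGF (-0.02, adjusted p = 0.98) and S100A3 (-0.01, adjusted p = 0.97), all called higher against Cas, the difference from ErbB2 alone did not pass the test.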

How the data were processed

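Per the file headers, the deposited table gives for each probe and array an unnormalized bead intensity (linear) and a detection p-value. Which software made them is not given in the sources used. The labels name another BeadChip design than the 47224 probes of the table imply. The authors' processed intensities have the same probe order within arrays and were used as an alternative. All sample columns were mapped (0 left out). Signals were background corrected from the detection p-values, quantile normalized and log2 transformed with neqc (limma 3.58.1, R 4.3.3, offset 16). Gene names came from the platform annotation: 30111 probes had 1 symbol, 8 several and 17105 none, and 30072 were updated by gene ID. A model with 3 group means was fitted to the 9 arrays of ErbB2, Cas and Cas/ErbB2, with empirical Bayes moderation and Benjamini-Hochberg adjustment. Named are the 15 largest rises and falls among called genes without array overlap, without provisional symbols and without another probe called oppositely, up to 5 called members of each of 42 lists, up to 4 bright members that did not pass, and BCAR1, ERBB2 and NGFR. Further called members are named with their change to describe a list and were chosen after their values were seen. Values for 1 of these lists are left out. The samples, lists and rules were chosen with earlier results of these data known. On simulated arrays for this comparison (10579 items, 200 changed) 14.9% of changes of 0.5, 77.6% of 1 and 100% of 2 (log2) were recovered, with 4 false among 132 calls. The simulated noise was independent between items and arrays and was drawn on the normalized scale. The simulation therefore does not cover errors shared by the genes of an array or the choice of normalization, and gives no error rate for the real calls. Promoters are from RefSeq. Figures used Python 3.11.15 and matplotlib 3.10.9.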

Additional observations from a re-analysis of the deposited data

How the results depend on the processing

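Counts for Cas/ErbB2 against Cas (1750 called, 813 higher and 937 lower) stayed within 1.5 times under normexp or no background correction, the authors' processed intensities, other detection filters, probe means, single probes, 6 or 12 arrays, the replicate block and other moderation, from 1211 items without a filter to 2375 with array weights. Median scaling gave 276 called, 162 higher and 114 lower (41.3% lower against 53.5%). Median scaling without Cas/ErbB2 replicate 3, chosen after seeing the data, gave 4668, 474 and 4194 (89.8% lower, median change -0.331). In that last setting 29 of 31 mitosis genes and 16 of 27 proteasome subunits were called lower. Of 18 synthetases 6 were called higher there and 3 lower, and of 20 ERK output genes 11 higher and 0 lower. With 6 arrays and without Cas/ErbB2 replicate 3, 2421 were called. Leaving out 1 array gave 1080 to 2537 called, 518 to 1116 higher and 562 to 1421 lower, lowest without Cas replicate 1 and highest without Cas/ErbB2 replicate 3; without Cas replicate 2, 1185 were called, 563 higher and 622 lower. The cause was not tested. Of 674 genes followed (list members and the largest changes) 272 were called. Of these 272, 89 kept their call under every one of the 26 alternatives that tested them, and 0 turned sign. Under median scaling 181 lost their call, and 97 did under another setting. Among all 1750 called items 16 turned sign under median scaling without Cas/ErbB2 replicate 3. With single probes 11 did, where a different probe of the gene could be read. Whether equal replicate numbers mark paired samples was not settled, and the main fit used no pairing. Deviations from the group means correlated at 0.0992, 0.0291 and 0.189 between equal numbers of the Cas and Cas/ErbB2 arrays. Between unequal numbers they correlated at -0.202 to 0.106. With the replicate block 1862 items were called. Signals near background set only bounds, and array number limits the precision.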

Other observations

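Of 38 measured respiratory complex genes 7 were called lower and 0 higher (median -0.29), with NDUFB10 at -0.64 ± 0.12 (adjusted p = 0.00367, and 0.422 under median scaling). Under median scaling 0 of the 38 were called (2 with an unadjusted p under 0.05). Leaving out 1 array gave 1 lower call without Cas array 1, 2 without Cas array 3 or Cas/ErbB2 array 2, 3 without Cas array 2, 4 without Cas/ErbB2 array 1 or any 1 ErbB2 array and 8 without Cas/ErbB2 array 3. Under median scaling without Cas/ErbB2 array 3, 37 of the 38 were called lower. Cytosolic ribosomal proteins were called lower for 4 of 56 and higher for 0 (median -0.06; 2 lower without Cas array 1, 1 without Cas array 2, and 0 under median scaling with 1 at an unadjusted p under 0.05), and ribosome biogenesis genes for 1 of 21 in each direction (0 under median scaling, with 0 at an unadjusted p under 0.05), shares below those over all items. Of 20 lysosome and autophagy genes 4 were called lower, among them the cathepsins CTSH (-1.13), CTSA (-1.09) and CTSD (-0.96), and 2 higher, among them the cholesterol carrier NPC1 (1.02). Under median scaling none of these 20 was called (0 higher, 0 lower; 4 with an unadjusted p under 0.05).

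In sterol synthesis 3 of 16 measured genes were called higher, led by MSMO1 (0.81), and LSS was lower (-0.53); under median scaling 0 of the 16 were called (1 with an unadjusted p under 0.05; adjusted p = 0.303 and 0.649 for these), and without Cas array 1 or Cas/ErbB2 array 2, 1 was called higher. Of 2613 unnamed probes 273 were called, a smaller share than the 1750 of all 10579 items (16.5%).

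The AP-1 word TGANTCA, looked up on both strands of the same promoters, was found in 7.76% of all promoters of the table, 4.57% of tested genes, 7.31% of those called higher, 5.55% of those called lower and 4.16% of those not called. This is a description with no test.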
